A study of Drosophila melanogaster with 4 samples.

Results

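The peaks described here are the Abrupt (Ab) binding regions listed at 3 *Drosophila* genes that drive the cell cycle and growth, *Cdk4*, *cdc2c* and *dm*. They are all regions of either deposited list with at least 1 bp inside the window of that gene's genome browser panel in the study. There were 22 of them, 10 of the 8881 listed for *ab* and 12 of the 10892 listed for *scrib-+ab*. Ab is a BTB zinc finger transcription factor, and its chromatin was pulled down with a rabbit polyclonal anti-Abrupt antibody from mosaic eye/antennal discs, larval epithelia from which the eye and antenna of the fly develop. In the *ab* sample, clones overexpressed *ab* (labelled strain *UAS-ab55*). In the *scrib-+ab* sample, clones overexpressed *ab* and were mutant for *scrib1*, an allele of the cell polarity gene *scribble* (labelled strain *FRT82B,scrib1*). Larvae of both genotypes were about 5 days old. The clones were made by a recombinase under eyeless control, so each disc also held tissue outside the clones, and the chromatin was a mixture of both. About 100 discs went into each immunoprecipitation, and 3 to 6 immunoprecipitations were pooled into 1 library for each genotype.

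Since each genotype has 1 library, the values stand without replicate error, no test between genotypes was possible, and library and genotype cannot be told apart. The lists give each peak's arm, start and end on dm3, counted here from 1 with both ends included, and a score that is 1 for every peak. They hold no reads, so the depth behind a single peak is not known. Heights were therefore read from the drawn read tracks of the panels, on their printed scale of 1 to 100, where 1 pixel is 0.639 units. Whether the input was subtracted from these tracks, or the tracks scaled for depth, is not given in the sources used here. The study's methods give similar read totals for both libraries. Peak lists carry no cell type markers, so the labelled tissue could not be checked from them.

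Cdk4 is the kinase partner of Cyclin D and promotes growth and passage from G1 into S phase. The product of *cdc2c*, named *Cdk2* in current RefSeq, is the partner of Cyclin E and is needed for entry into S phase. *dm* (*diminutive*) encodes the only *Drosophila* Myc protein, a transcription factor that raises ribosome production and cell growth. In the text of the study *Cdk4* and *dm* belong to Class 1, the genes with Ab peaks in both samples that were deregulated in both. That text does not give a class for *cdc2c*. The panels are described there as showing genes of Classes 1 to 4, all of which have a peak in *scrib-+ab* by definition, whereas the deposited *scrib-+ab* list has 0 peaks in the *cdc2c* window. That description is not strict, since *dom* also has a panel and is given in the study's text as lacking Ab peaks in *scrib-+ab*. The study's lists of class members and its expression arrays were not used here, so the class of *cdc2c* was not determined.

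Ab peaks lay at all 3 genes in *ab* and at *Cdk4* and *dm* in *scrib-+ab*. *Cdk4* had 5 peaks in *ab* and 6 in *scrib-+ab*. *dm* had 4 and 6. *cdc2c* had 1 peak in *ab* and 0 in *scrib-+ab*. By the definition in the study's methods, a target gene has a peak in an intron or in the promoter region, from a start site to 500 bp before it, and all 10 *ab* peaks and all 12 *scrib-+ab* peaks met it. The share of all listed peaks that meet it was not computed, since it needs an annotation of the whole genome, and the panels were drawn for genes chosen as targets, which largely fixes this count. Under the definition *Cdk4* and *dm* were targets in both samples and *cdc2c* in *ab* alone. The *ab* call of *cdc2c* was lost when the midpoint of the peak decided its place and when the longer 50% of the list was used. Of the 10 *ab* peaks, 4 reached a promoter region and 8 an intron. Of the 12 *scrib-+ab* peaks, 3 reached a promoter region and 11 an intron.

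About as many peaks were shared between the samples as not, where 2 peaks count as shared if they overlap by 1 bp or more. At the 3 genes 5 of 10 *ab* peaks were shared with *scrib-+ab* (50%, exact Clopper-Pearson 95% interval 18.7 to 81.3%, which covers counting error only). The interval takes peaks as independent, which neighbouring peaks of the same gene are not. Over the whole *ab* list 59.1% were shared. Of the *scrib-+ab* peaks 7 of 12 were shared (58.3%, 27.7 to 84.8%), and over the whole *scrib-+ab* list 58.2%. The shares at these genes thus lay at the level of their lists. The shared peaks formed 7 overlapping pairs, and in 6 of these the *scrib-+ab* peak lay wholly inside the *ab* peak. The share of such pairs over the whole lists was not computed. Peaks of the *scrib-+ab* list are shorter throughout, with a median of 69 bp against 151 bp in *ab*. A peak of the other list within 500 bp was found for 9 of 10 *ab* peaks and 11 of 12 *scrib-+ab* peaks, beside 76.7% and 75.2% of the lists.

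**Figure D1:**
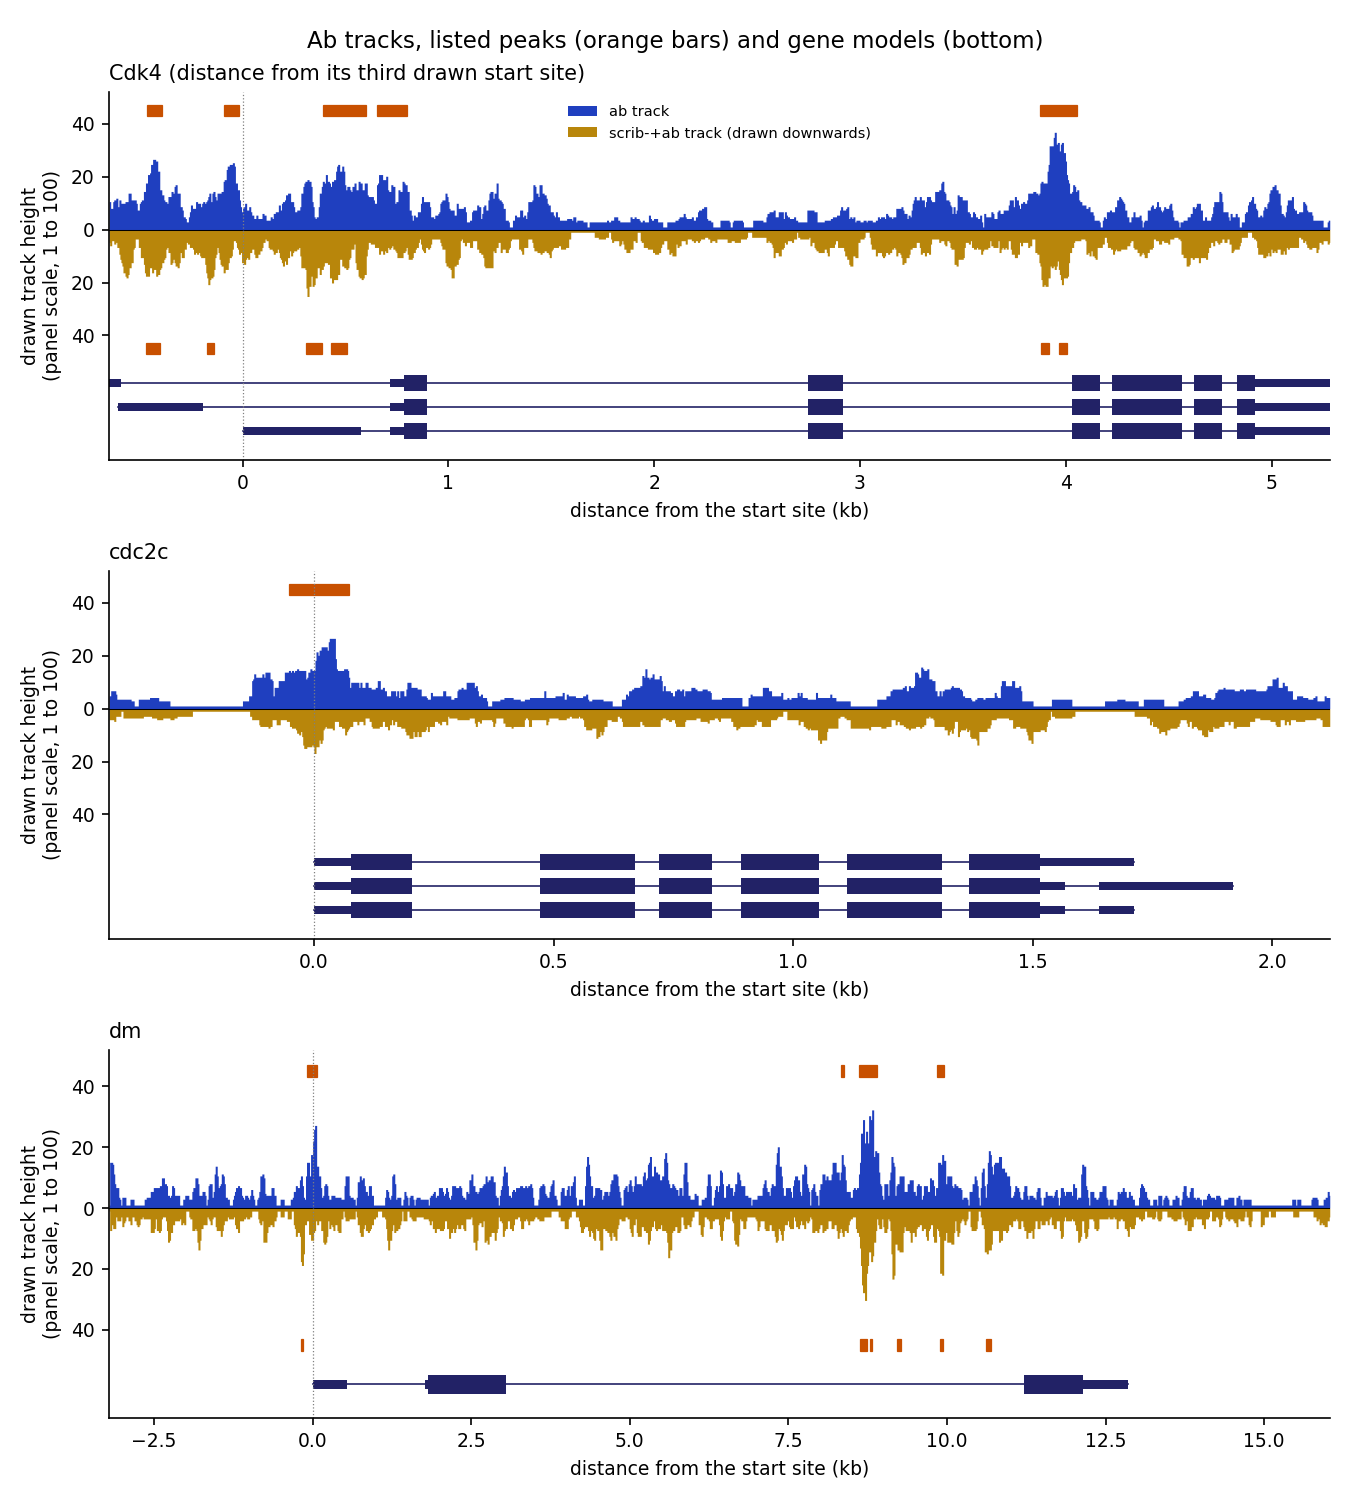
Read tracks of *ab* (blue, upwards) and *scrib-+ab* (gold, drawn downwards) over the windows of *Cdk4*, *cdc2c* and *dm*, with height on the panels' scale of 1 to 100 against distance from the start site in kb; orange bars are the listed peaks of *ab* (top) and *scrib-+ab* (below the gold track), and the models at the bottom have thick coding and thin untranslated exons. The highest points are 36.8 in *ab* and 25.3 in *scrib-+ab* at *Cdk4*, and *cdc2c* has 1 *ab* peak at its start and 0 peaks in *scrib-+ab*.

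The *Cdk4* window covered 5937 bp of arm 2R, from 12466977 to 12472913, and drew 3 transcripts on the forward strand. Their start sites were read at 12466977 (the edge of the panel, where the start was taken to lie), 12467022 and 12467628. The peaks fell into a group between the second start site and the first coding exon and a separate group near the other end of the gene. The first group held 4 *ab* and 4 *scrib-+ab* peaks within 1270 bp. The longest intron, 1853 bp, held 0 peaks of either list, and its tracks had medians of 4.19 in *ab* and 4.83 in *scrib-+ab*.

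The first *Cdk4* peaks nearly coincided. In *ab* the peak was 71 bp long (12467164 to 12467234), and in *scrib-+ab* it was 69 bp long (12467158 to 12467226). They had 63 bp in common, 88.7% of the *ab* peak and 91.3% of the *scrib-+ab* peak. This was the only pair at the 3 genes with at least 50% of both peaks in common. Over the lists 28.6% of *ab* peaks and 23.3% of *scrib-+ab* peaks met that rule. These peaks began 142 and 136 bp after the second start site, in the 5′ untranslated exon of the second transcript and in the promoter region of the third. The *ab* track reached 26.5 within the *ab* peak and the *scrib-+ab* track 17.6.

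Just before the third start site of *Cdk4* the listed peaks did not overlap. The *ab* peak (12467538 to 12467610, 73 bp) ended 18 bp before that start. The *scrib-+ab* peak (12467456 to 12467489, 34 bp) ended 139 bp before it. The peaks had 48 bp between them and did not count as shared. Fragments were about 500 bp long, so a gap of this size does not show that Ab bound at different places. Each track was higher over its own peak. Over the *ab* peak the heights were 25.3 in *ab* and 16.3 in *scrib-+ab*, and over the *scrib-+ab* peak they were 14.4 and 20.8.

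After the third start site the *ab* list had a peak of 212 bp (12468018 to 12468229) and the *scrib-+ab* list 2 short ones, of 76 bp (12467938 to 12468013) and 77 bp (12468058 to 12468134). The 77 bp peak lay wholly inside the *ab* peak. The 76 bp peak missed the *ab* peak by 4 bp, although it held the highest *scrib-+ab* point of the window, 25.3. The *ab* track reached 18.9 there and 24.6 within its own peak. A further *ab* peak of 145 bp (12468283 to 12468427) ran across the end of the intron into the first coding exon. The nearest *scrib-+ab* peak was 148 bp away, and the heights over it were 20.8 in *ab* and 10.6 in *scrib-+ab*.

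The second group lay at the end of the intron before the third coding exon of *Cdk4*. The *ab* peak was 181 bp long (12471503 to 12471683), began 3875 bp after the third start site and reached into that exon. It was the highest of all 22 peaks, with 36.8 at 12471575. In *scrib-+ab* the same place was listed as 2 peaks of 39 bp each (12471508 to 12471546 and 12471596 to 12471634). The *ab* summit stood in the 49 bp between them, where the *scrib-+ab* track dipped to 11.9. The *scrib-+ab* track reached 21.4 and 20.8 within its own peaks. An *ab* peak that meets 2 or more *scrib-+ab* peaks was found in 11% of the *ab* list, and there were 2 such peaks among the 10 at these genes, this one and one in *dm*.

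The window of *cdc2c* covered 2551 bp of arm 3R, from 16560913 to 16563463. It drew 3 transcripts of *cdc2c* with 1 start site, read at 16561342, with the microRNA gene *mir-995* in the first intron and *CG17267* after the gene on the opposite strand. The only listed peak was in *ab* and covered the start site. It was 124 bp long (16561290 to 16561413), with 52 bp in the promoter region and 72 bp in the 5′ untranslated exon, and it reached no intron. No peak lay at *mir-995* or *CG17267*.

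Over this *cdc2c* peak the *ab* track reached 26.5 and the *scrib-+ab* track 17. At least 200 bp away from any peak in the same panel the highest points were 15.7 in *ab* and 13.8 in *scrib-+ab*. The *scrib-+ab* track thus had its highest point of the window within the *ab* peak, at 16561343, beside the start site. That point was higher than the tracks of 2 listed *scrib-+ab* peaks in *dm* (14.4 and 15.1). The nearest listed *scrib-+ab* peak was 21447 bp from the *ab* peak. In the *Cdk4* and *dm* windows, however, the *scrib-+ab* track reached 18.2 and 16.3 at least 200 bp from any peak. A height of 17 thus lay within the range of unlisted places. Whether the enrichment over input at this *cdc2c* place differed between the samples was not tested. Over all 10 *ab* peaks, shared or not, the *scrib-+ab* track passed its highest point away from peaks at 5. Over all 12 *scrib-+ab* peaks the *ab* track did so at 7.

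The *dm* window covered 19259 bp of the X chromosome, from 3263999 to 3283257, with 1 transcript whose start was read at 3267214. At the start site the listed peaks again did not overlap. The *ab* peak (3267131 to 3267287, 157 bp) covered the start. The *scrib-+ab* peak (3267026 to 3267063, 38 bp) lay 151 bp before it. There were 67 bp between these peaks, again a short gap beside fragments of about 500 bp. The *ab* track reached 27.2 over the *ab* peak, where the *scrib-+ab* track reached 10.6, and over the *scrib-+ab* peak the values were 10.6 in *ab* and 18.9 in *scrib-+ab*. The *ab* peak at the *dm* start had the lowest *scrib-+ab* to *ab* height ratio of the 10, 0.389.

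All other *dm* peaks lay in the last part of the long second intron, which was read at 8157 bp. They comprised 3 *ab* and 5 *scrib-+ab* peaks within 2354 bp. The 5279 bp of that intron before them held 0 peaks. The main one was an *ab* peak of 285 bp (3275831 to 3276115), the longest of the 22. Inside it lay 2 *scrib-+ab* peaks, of 110 bp (3275848 to 3275957) and 39 bp (3276000 to 3276038). Over the whole *ab* peak the highest points were 32.3 in *ab*, at 3276035, and 30.4 in *scrib-+ab*, at 3275923. Within the 110 bp peak, the longest and highest *scrib-+ab* peak at the 3 genes, the heights were 29.1 in *ab* and 30.4 in *scrib-+ab*. Within the 39 bp peak they were 32.3 and 17.6, and this ratio of *ab* to *scrib-+ab*, 1.83, was the highest at the 12 *scrib-+ab* peaks. The tracks thus differed by under 2 units over the 110 bp peak and by more over the 39 bp peak. At 16 bp per pixel the 39 bp peak spans few columns, and its *ab* high point, at 3276035, lay at its edge. With fragments of about 500 bp, a contrast between parts of this *ab* peak is not resolved.

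A second shared place in the *dm* intron was short in both lists. The *ab* peak was 104 bp long (3277060 to 3277163) and the *scrib-+ab* peak of 41 bp (3277107 to 3277147) lay inside it. Both tracks had their summit at 3277139. The *scrib-+ab* track was the higher one, 22.1 against 17.6, and this was the only *ab* peak of the 10 at which it was.

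The remaining *dm* intron peaks were in 1 list each. The *ab* peak of 39 bp (3275548 to 3275586) had heights of 17.6 in *ab* and 9.3 in *scrib-+ab*. The *scrib-+ab* peak of 60 bp (3276432 to 3276491) had 10.6 in *ab* and 14.4 in *scrib-+ab*. The *scrib-+ab* peak of 78 bp (3277824 to 3277901) was 660 bp from the nearest *ab* peak, yet the *ab* track was higher there than the *scrib-+ab* track, 18.9 against 15.1.

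Height alone did not separate listed from unlisted places. In *dm* the *ab* track reached 20.2 at 3274547, where no peak was listed, above the 17.6 of 2 listed *ab* peaks. The *scrib-+ab* track reached 23.4 at 3276355, between its listed peaks and above 5 of the 6. The peaks had been called against the input, which the panels do not draw. Of the *ab* peaks 8 of 10 stood above the highest point of their own track at least 200 bp from any peak, and of the *scrib-+ab* peaks 9 of 12 did.

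**Figure D2:**
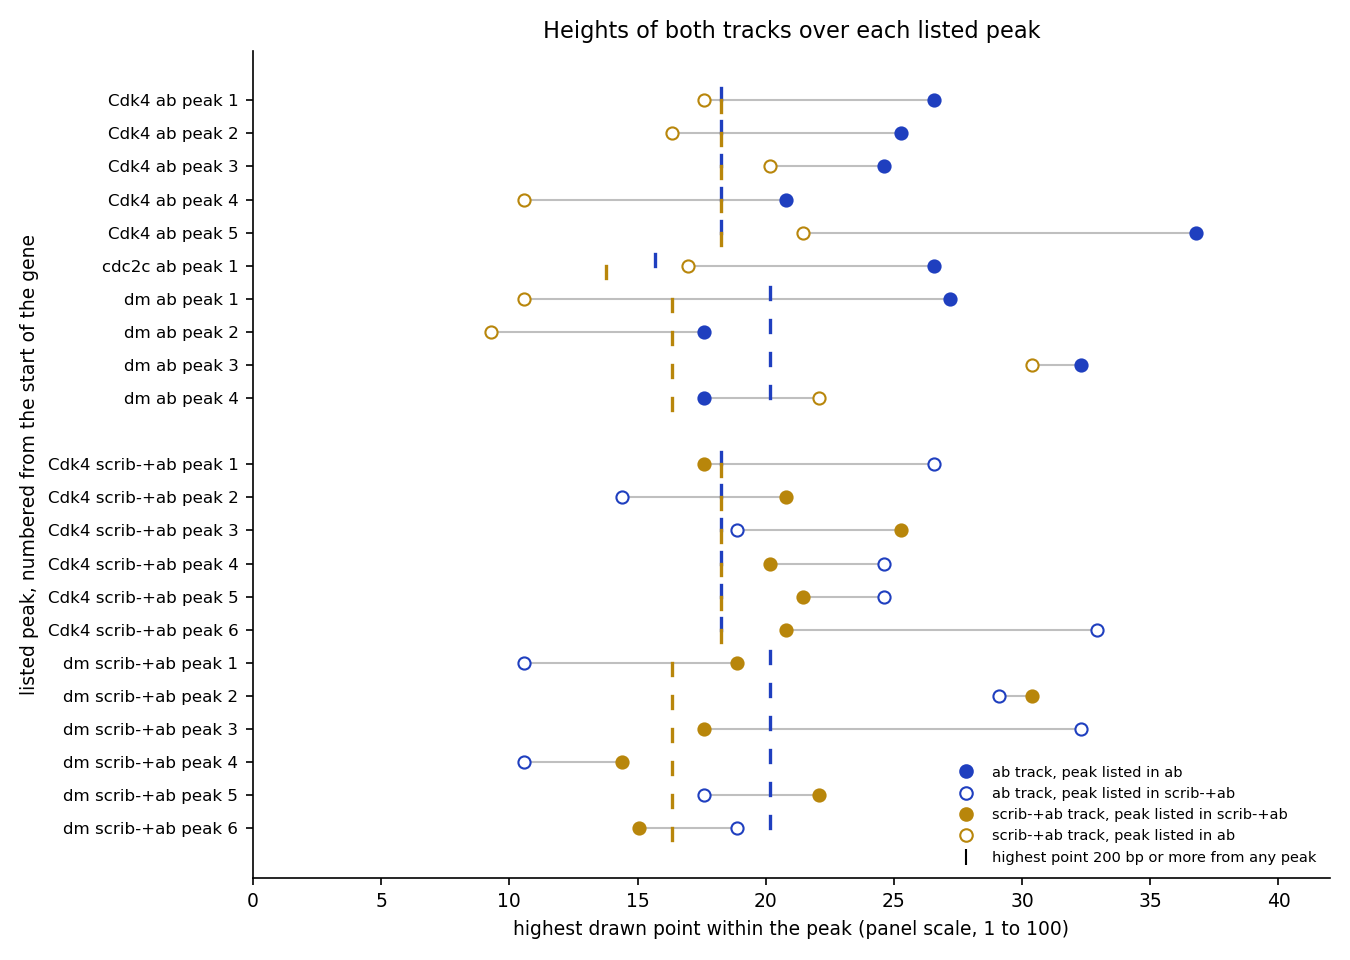
Highest drawn point of the *ab* track (blue) and the *scrib-+ab* track (gold) within each of the 22 listed peaks, on the panels' scale of 1 to 100; filled points are the track of the list that holds the peak, open points the other track, and short vertical ticks the highest point at least 200 bp from any peak in the same window and track. The *ab* track is higher over 9 of 10 *ab* peaks and the *scrib-+ab* track over 6 of 12 *scrib-+ab* peaks.

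Over the 10 *ab* peaks the *ab* track had a median highest point of 25.9 (range 17.6 to 36.8), and the *scrib-+ab* track 17.3 (9.3 to 30.4). The median ratio of *scrib-+ab* to *ab* was 0.643. Over the 12 *scrib-+ab* peaks the *scrib-+ab* track had a median of 20.5 (14.4 to 30.4) and the *ab* track 21.8 (10.6 to 32.9). The tracks were thus apart at the *ab* peaks, with the *ab* track higher at 9 of 10, while at the *scrib-+ab* peaks each was the higher one at 6 of 12. Since the peaks were called on reads of the same libraries, a higher own track is partly set by the choice of peaks.

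The lengths of the peaks at these genes lay within the range of their lists. The *ab* peaks had a median length of 134.5 bp (39 to 285) against 151 bp over the *ab* list, and 4 of 10 were longer than the list's median. The *scrib-+ab* peaks had a median of 50.5 bp (34 to 110) against 69 bp, and 4 of 12 were longer. Under 40 bp were 1 of 10 *ab* peaks, where the list has 2.65%, and 5 of 12 *scrib-+ab* peaks, where it has 23.3%. No peak at these genes was above percentile 81 of its list by length. The *ab* peaks covered 1391 bp and the *scrib-+ab* peaks 700 bp, a ratio of 1.99, beside 1.62 over the whole lists, which differ in peak length throughout.

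**Figure D3:**
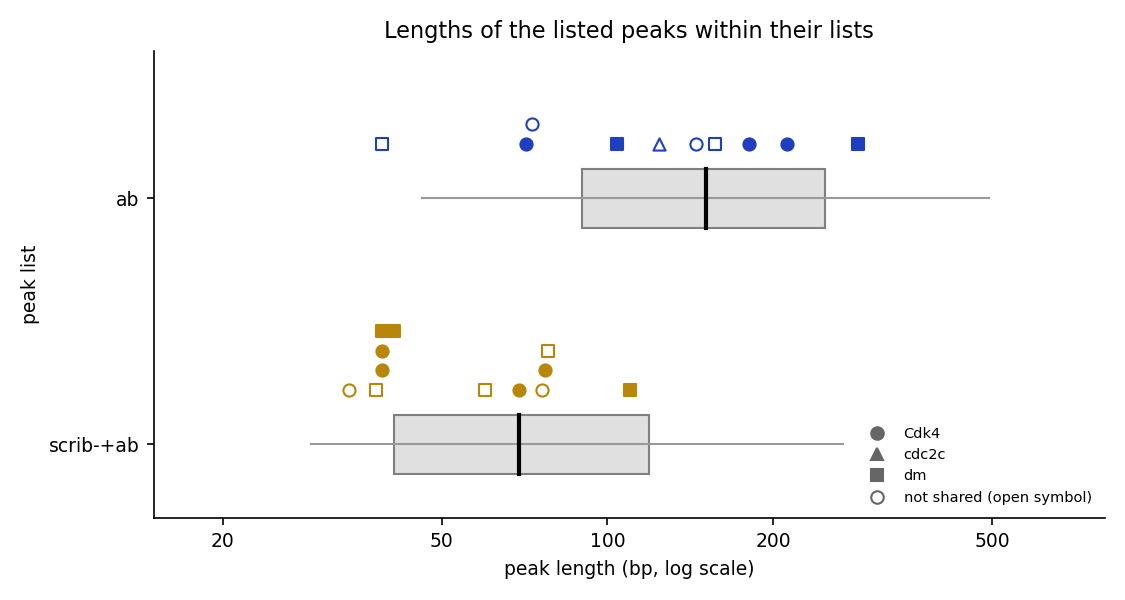
Length of each listed peak at *Cdk4* (circles), *cdc2c* (triangle) and *dm* (squares) in bp on a log scale, above a box of its whole list (median and quartiles, line from the 5th to the 95th percentile); open symbols have no overlapping peak in the other list, and symbols of near-equal length are stacked. The *ab* peaks run from 39 to 285 bp and the *scrib-+ab* peaks from 34 to 110 bp.

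Other growth genes that the text of the study names beside *Cdk4* and *dm* were counted in the same way. They were *ex* and *ft*, upstream members of the Hippo pathway, and *th*, which encodes the apoptosis inhibitor DIAP1. Their windows held 29 *ab* and 36 *scrib-+ab* peaks, of which 21 (72.4%, 52.8 to 87.3%) and 31 (86.1%, 70.5 to 95.3%) were shared. These intervals also take peaks as independent, which neighbouring peaks of the same gene are not. Over the whole lists 59.1% of *ab* and 58.2% of *scrib-+ab* peaks were shared. The difference of these windows from *Cdk4*, *cdc2c* and *dm* was not tested, and peak length, which bears on overlap by 1 bp, differed too. Per kb of window, *Cdk4* had 0.842 *ab* and 1.01 *scrib-+ab* peaks, and *ex*, the most densely covered of the other genes, had 0.605 and 0.791. *dm* had 0.208 and 0.312, beside *ft* with 0.317 and 0.356. The longest *ab* peak was 1081 bp in *ex*, 788 bp in *ft* and 632 bp in *th*, against 212 bp in *Cdk4* and 285 bp in *dm*. The *ab* tracks of *ex* and *th* reached the 100 at which the scale ends, and the tracks of *Cdk4*, *cdc2c* and *dm* did not pass 36.8. The windows were drawn by the study around chosen genes and differ in extent, so these densities are a description.

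**Figure D4:**
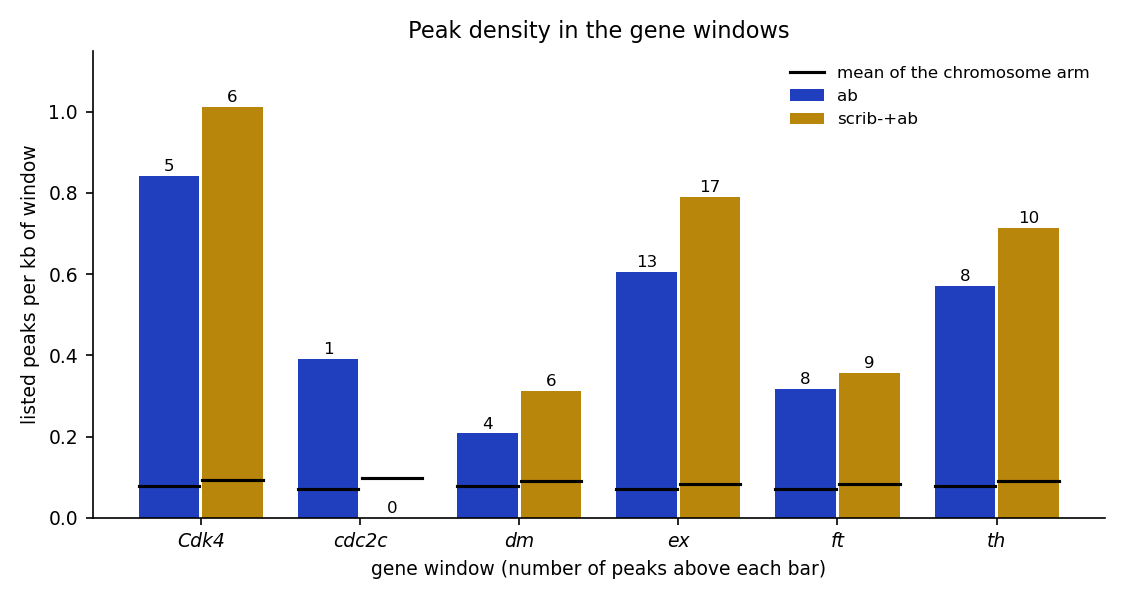
Listed peaks per kb of window in *ab* (blue) and *scrib-+ab* (gold) at *Cdk4*, *cdc2c*, *dm* and 3 other growth genes, with the number of peaks above each bar and black lines for the mean density of the chromosome arm in that list. *Cdk4* has the highest bars of the 6 genes, 0.842 and 1.01 per kb, and *cdc2c* has 0 in *scrib-+ab*.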

How the data were processed

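Reads of the anti-Abrupt ChIP-Seq were aligned by the authors to dm3 (BDGP Release 5) with Bowtie at default parameters. Enrichment over the normalised input was called per library with PeakSeq (settings READLENGTH 40, MAXGAP 40, MINFDR 0.01, PVALTHRESH 0.0001). The authors deposited arm, start, end and a score that is a constant 1, so calling could not be varied. Fragments were about 500 bp, and cross-linking used 1.8% formaldehyde.

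Starts were converted to count from 1. Overlaps were counted at 1 bp. Windows, gene models and track heights were read by pixel from the study's genome browser panels (2.13 to 16 bp per pixel), because a dm3 annotation and sequence were not used here. Drawn peak bars lay within 2.15 pixels of the listed peaks. The frame of the scale was set from a clipped point in the *ex* panel. Overlap counting and the reader were tested on simulated data. The named genes were the 3 members with all their peaks and, by counts, *ex*, *ft* and *th*; a further gene on the list is not reported here. Members and lists were chosen with earlier results of these data known. Of the alternatives, only the printed scale marks were chosen after seeing the data. Input libraries and motifs were not analysed here. Panels were read with Pillow 12.0.0 and drawn anew with Matplotlib 3.10.9, and values were computed in Python 3.11.15 with NumPy 2.4.6 and SciPy 1.17.1.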

Additional observations from a re-analysis of the deposited data

How the results depend on the processing

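No paired analysis was possible because each genotype had 1 library and no result comes from a test. The motif search was not run, since it needs a dm3 sequence. Joining peaks within 500 bp gave 6 regions in *ab* and 6 in *scrib-+ab* in place of 10 and 12 peaks. Keeping the longer 50% of both lists left 4 and 5 peaks, and at a minimum of 40 bp 7 in *scrib-+ab*. Sharing depended most on its definition. With at least 50% of both peaks in common, 1 *ab* and 1 *scrib-+ab* peak were shared, with a gap of up to 500 bp 9 and 11, and with the longer 50% of each list 2 and 2. The genes called in *ab* fell from 3 to 2, without *cdc2c*, by the midpoint of the peak and with the longer 50% of the list. *Cdk4* and *dm* were called in both samples under all 7 alternatives for that call. The median height was 17.6 in *ab* and 18.2 in *scrib-+ab* as the median over each peak. This reverses the order of the median highest points, 25.9 and 20.5, which were taken over longer peaks in *ab*. With the printed marks as ends of the scale, a choice made after seeing the data, the median highest point was 19.4 in *scrib-+ab*. The ratio of *scrib-+ab* to *ab* height at *ab* peaks was 0.759 within 100 bp of the peak and 0.584 with the printed marks, also below 1. By place in the list within the arm, the median percentile was 34.2 in *ab* and 24.4 in *scrib-+ab*, against 43.6 and 33.6 by length; the cause was not tested. What orders the deposited lists is not given in the sources used here, but in *ab* the first 10% of an arm's peaks had a median of 455 bp and the last 10% of 61 bp. Heights of neighbouring peaks differ by few pixels, and a start site is known only to within a few pixels of the panel.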

Other observations

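Within 5000 bp on either side of the windows of *Cdk4* and *cdc2c* there were 0 peaks of either list, where the mean density of the arm gives 0.784 *ab* and 0.926 *scrib-+ab* peaks at *Cdk4* and 0.721 and 0.984 at *cdc2c*. The promoter region of the first *Cdk4* transcript lies before its window, and the nearest listed *ab* peak on that side was 7545 bp away. Within 20000 bp *Cdk4* had 4 *ab* and 8 *scrib-+ab* peaks, where the arm means are 3.13 and 3.7, among them an *ab* peak of 914 bp at a distance of 8638 bp. Within 20000 bp of *cdc2c* there were 0 peaks of either list, where the means are 2.89 and 3.94. Farther out, within 50000 bp, *cdc2c* had 16 *ab* peaks, all beyond its downstream end, and 12 *scrib-+ab* peaks, 11 of them on that side. The longest of those *ab* peaks was 897 bp (16590903 to 16591799 on 3R), 27439 bp from the window.

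The surroundings of *dm* held more listed peaks in *scrib-+ab*, whose whole list also has more and shorter peaks. Within 5000 bp of the *dm* window there were 1 *ab* and 4 *scrib-+ab* peaks, within 20000 bp 4 and 12, and within 50000 bp 18 and 28. The arm means for these distances are 0.794 and 0.907, 3.18 and 3.63, and 7.94 and 9.07. The nearest was a *scrib-+ab* peak of 52 bp, 340 bp before the window, with no overlapping *ab* peak.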
